A study of Rattus norvegicus with 16 samples.

Results

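The genes described here are the cyclins, cyclin-dependent kinases, kinase inhibitors, E2F factors, replication genes and CDC genes of the rat, followed in the initial segment of the epididymis after the flow of testicular fluid was cut off. They were chosen by symbol in the platform annotation, as every cyclin A, B, D or E, every CDK and CDK inhibitor gene with a numbered symbol except Cdkn1a, Mcm2 to Mcm7, every numbered CDC and E2F gene, and Mki67, Top2a, Pcna, Ube2c, Rrm1, Rrm2 and Tyms. The rule found 88 genes of the 14218 genes that had a probe set with 1 symbol. Where a gene had several such probe sets, the one with the highest mean stands for it. Cdc6 and Rrm2 had no probe set with 1 symbol and have no value here. The rule reads symbols, so it also took in 24 genes matched by symbol alone, such as Cdc42 and its effectors, which have other main roles.

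The tissue came from normal adult male Sprague-Dawley rats in which the efferent ducts, the tubes that lead from the testis into the epididymis, were ligated on 1 side. The other side of the same animal had a sham operation. The proximal end of the initial segment (zones 1a and 1b) was taken 6, 12 or 18 h after ligation, and 4 arrays were hybridised for each time and 4 for sham, 16 in all. The single sham group is labelled time 0 and serves every comparison, so the 3 comparisons with sham share its arrays, and time since operation was not controlled. The labels call the replicates biological and do not tie a replicate number to an animal, so p-values measure the spread between these arrays.

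A cell is driven through division by cyclins, which rise and fall and switch on their partner kinases. D cyclins with CDK4 or CDK6, and then E cyclins with CDK2, phosphorylate the retinoblastoma protein, which frees E2F factors to turn on genes for DNA replication, while A and B cyclins with CDK1 drive mitosis, and the INK4 and CIP/KIP inhibitors hold the kinases back. The principal cells of the adult epididymal epithelium rarely divide, and the initial segment depends on factors that arrive with testicular fluid.

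Values are GCRMA levels on the log2 scale, and a level below 5 counts as background. A probe set was tested if at least 4 of the 16 arrays lay at or above 5. Differences are between group means (n = 4 arrays each), in log2 units, with their SE after the ± sign. A gene was called at an adjusted p under 0.05 in limma's test over all 13410 tested probe sets. A difference that involves a group mean under 5 bounds the true difference from below. Levels of different genes are levels of different probe sets and are not compared. In whole tissue, fewer cells of a type and less RNA per cell cannot be told apart.

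Of the 88 genes, 54 were tested and 34 were not. Of all 20826 probe sets with 1 symbol, 10869 were tested. That count holds every probe set of a gene, not only the highest, so the shares are not alike in kind. Of the 34 genes that were not tested, 30 never reached 5, and 10 lay within 0.1 of the lowest value of the table, 2.22, on all 16 arrays. Much of the machinery of S phase and mitosis fell on this side. The E cyclins Ccne1 and Ccne2, which open S phase, had highest values of 3.06 and 2.93. Ccna1 (highest value 2.29), Ccna2 (2.94) and Ccnb1 (2.37), the A and B cyclins of S phase and mitosis, were no higher, and only Ccnb2 of the 4 genes in that class was tested. The proliferation marker Mki67 reached 4.74, topoisomerase Top2a 4.20, thymidylate synthase Tyms 2.23 and the APC activator Cdc20 2.30.

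The G1 kinase Cdk6 stayed at 2.22 on every array. Of the inhibitors, Cdkn1c reached 4.26, Cdkn2a 2.26 and Cdkn2b 2.47. E2f1, the activator of S phase genes, reached 5.13, E2f2 3.98, and E2f7 and E2f8 were at 2.22 throughout. Mcm3 (2.34), Mcm5 (5.15), Mcm6 (5.01) and Cdc45 (3.57), parts of the replicative helicase, were too low to test. So were the phosphatases Cdc14a (4.20), Cdc14b (2.94), Cdc25a (3.11) and Cdc25b (2.65) and the APC subunit Cdc27 (4.41). The other genes not tested were Cdk14 (6.00), Cdk18 (3.47), Cdk20 (2.89), Cdk5rap1 (2.22), Cdk5rap2 (4.27), Cdk5r1 and Cdk5r2 (2.22 each) and Cdc42ep5 (4.61). For a gene with no signal above background these arrays give no level, and a low probe set does not show that the RNA is absent.

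**Figure D1:**
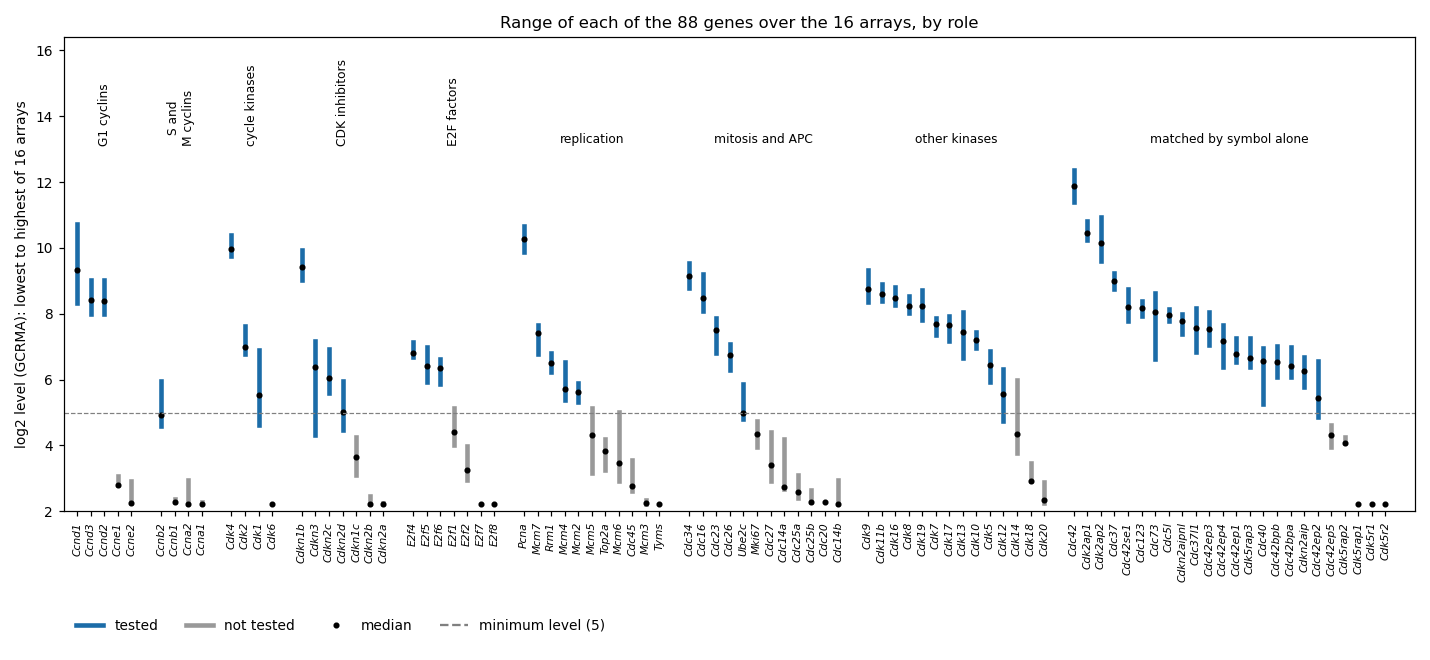
Range over the 16 arrays of each of the 88 genes (bar from the lowest to the highest log2 level, dot at the median), grouped by role, with the minimum level of 5 as a dashed line. The 54 tested genes are blue; the grey bars of the 34 others include nearly all A, B and E cyclins, and heights of different genes are not comparable.

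The arrays divided along the replicate numbers, a split that the labels do not explain. In a fit that also held the group, 15 of the 54 tested genes (27.8%) passed the test between the 2 pairs, 5 of them higher in replicates 3 and 4 and 10 lower, against 36.9% of all tested probe sets. Cdk13 was lower in replicates 3 and 4 by a log2 difference of -0.68 ± 0.11, and Cdc42 was higher by 0.52 ± 0.06. A bacterial control transcript added to the samples (dap) read 7.53 to 8.24 on replicates 3 and 4 of sham and 6 h and 2.22 on all other arrays. The differences below are therefore also given within replicates 1 and 2 and within replicates 3 and 4. Within replicates 3 and 4 the dap control itself differed between the sham arrays and those of 12 and 18 h. There a difference between array sets cannot be told apart from a difference from sham. Neutrophil markers were present on 2 arrays only: S100a8 read 4.92 and 8.75, and S100a9 8.47 and 10.36, on 12 h replicates 1 and 2, against at most 2.39 and 4.61 on the other arrays. Csf3r and Cxcr2, also in the neutrophil list, never reached 5 (4 of 5 genes of the list were matched), and the mean level of the list ran from 2.44 to 2.51 on sham arrays and from 2.44 to 6.14 at 12 h. The mean of 10 macrophage markers ran from 5.97 to 6.61 in sham, 5.10 to 7.63 at 12 h and 6.21 to 7.46 at 18 h. Of these Cd14 was called higher at 18 h (1.92 ± 0.46, adjusted p = 0.0158), as was Kdr among 2 tested endothelial markers (0.95 ± 0.21, adjusted p = 0.00876). Of 5 T cell markers Cd3d, Cd3e and Cd3g never reached 5, while Cd2 and Lck had group means of 5.75 to 5.86 and 6.26 to 6.56 and were not called. The mean of 6 epithelial markers ran from 10.72 to 11.03 in sham and 10.96 to 11.50 at 18 h, with Cldn3 called higher at 12 h (0.76 ± 0.16, adjusted p = 0.00732) and 18 h (0.52 ± 0.16, adjusted p = 0.0463). The mean of 4 matched genes of the initial segment ran from 12.20 to 12.82 in sham, 11.38 to 12.58 at 12 h and 11.93 to 12.33 at 18 h, with Ggt1 called lower (-0.60 ± 0.17, adjusted p = 0.0434, and -0.76 ± 0.17, adjusted p = 0.00941). The part of these markers in the results below was not tested.

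At 6 h none of the 54 genes was called by limma, with 1 at an unadjusted p under 0.05, where 0.283% of all tested probe sets were called. The median log2 difference was 0.04 over the 54 genes and 0.02 over all tested probe sets. The single gene was Cdkn1b, a CIP/KIP inhibitor that holds CDK2 back in resting cells. It read 9.41, 9.25, 9.05 and 9.43 in sham replicates 1 to 4 and 9.95, 9.43, 9.63 and 9.59 at 6 h. The groups touched at 9.43 after rounding and did not overlap before it. The difference of 0.36 ± 0.16 had an adjusted p of 0.827.

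At 12 h, 9 of the 54 genes were called (16.7%), 4 higher and 5 lower, against 7.86% of all tested probe sets (3.77% higher and 4.09% lower). Ccnd1, Cdkn3, Cdk2ap2, Cdc42se1 and Pcna were lower, and Ccnd2, Ube2c, Cdk19 and Cdk11b were higher. At 18 h, 6 of 54 were called (11.1%), against 10.2% of all tested probe sets (5.2% higher and 4.96% lower). These were the same 5 lower genes and, of the higher ones, Cdk11b. The median difference over the 54 genes was 0.09 at 12 h and 0.06 at 18 h, against 0.02 and 0.01 over all tested probe sets. The counts by role below, with 1 to 19 tested genes per role, are to be read beside the shares called given here.

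The 12 h count rested on few arrays. Without sham replicate 4 it was 1, and over all fits that left out 1 array it ran from 1 to 7. Without 12 h replicates 1 and 2, the arrays with neutrophil markers, 4 genes were called: Ccnd2 (0.78), Cdkn3 (-0.93), Ube2c (0.81) and Cdc16 (0.81). Cdc16 was not among the 9. This fit set 12 h replicates 3 and 4 against all 4 sham arrays, so the divide between the replicate pairs enters its differences. For Cdc16 the difference was 0.03 within replicates 1 and 2 and 0.58 within replicates 3 and 4. Within replicates 1 and 2 alone 1 gene was called, Cdkn2d, which was not among the 9, and within replicates 3 and 4 alone 2, both among the 9. With the 3 array sets that the replicate numbers and the dap control give as a block, a fit that leaves only replicates 1 and 2 with both sham and 12 h arrays in 1 set, 4 were called, of which 2 (Cdc42se1 and Cdk11b) were among the 9 and 2 (Cdc26 and Cdkn2d) were not. The 18 h count ran from 4 to 6 with 1 array left out. With the sets as a block it was 5, of which 3 (Cdkn3, Cdk2ap2 and Cdc42se1) were among the 6 and 2 (Cdk12 and E2f5) were not. With the pairs of replicates as a block it was 10 at each time, with Cdkn2d added to the 9 at 12 h and Cdc42, Cdk9, Cdk12 and E2f5 to the 6 at 18 h. For these other fits the share of all tested probe sets called is not given, so whether the change is particular to these genes was not tested.

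**Figure D2:**
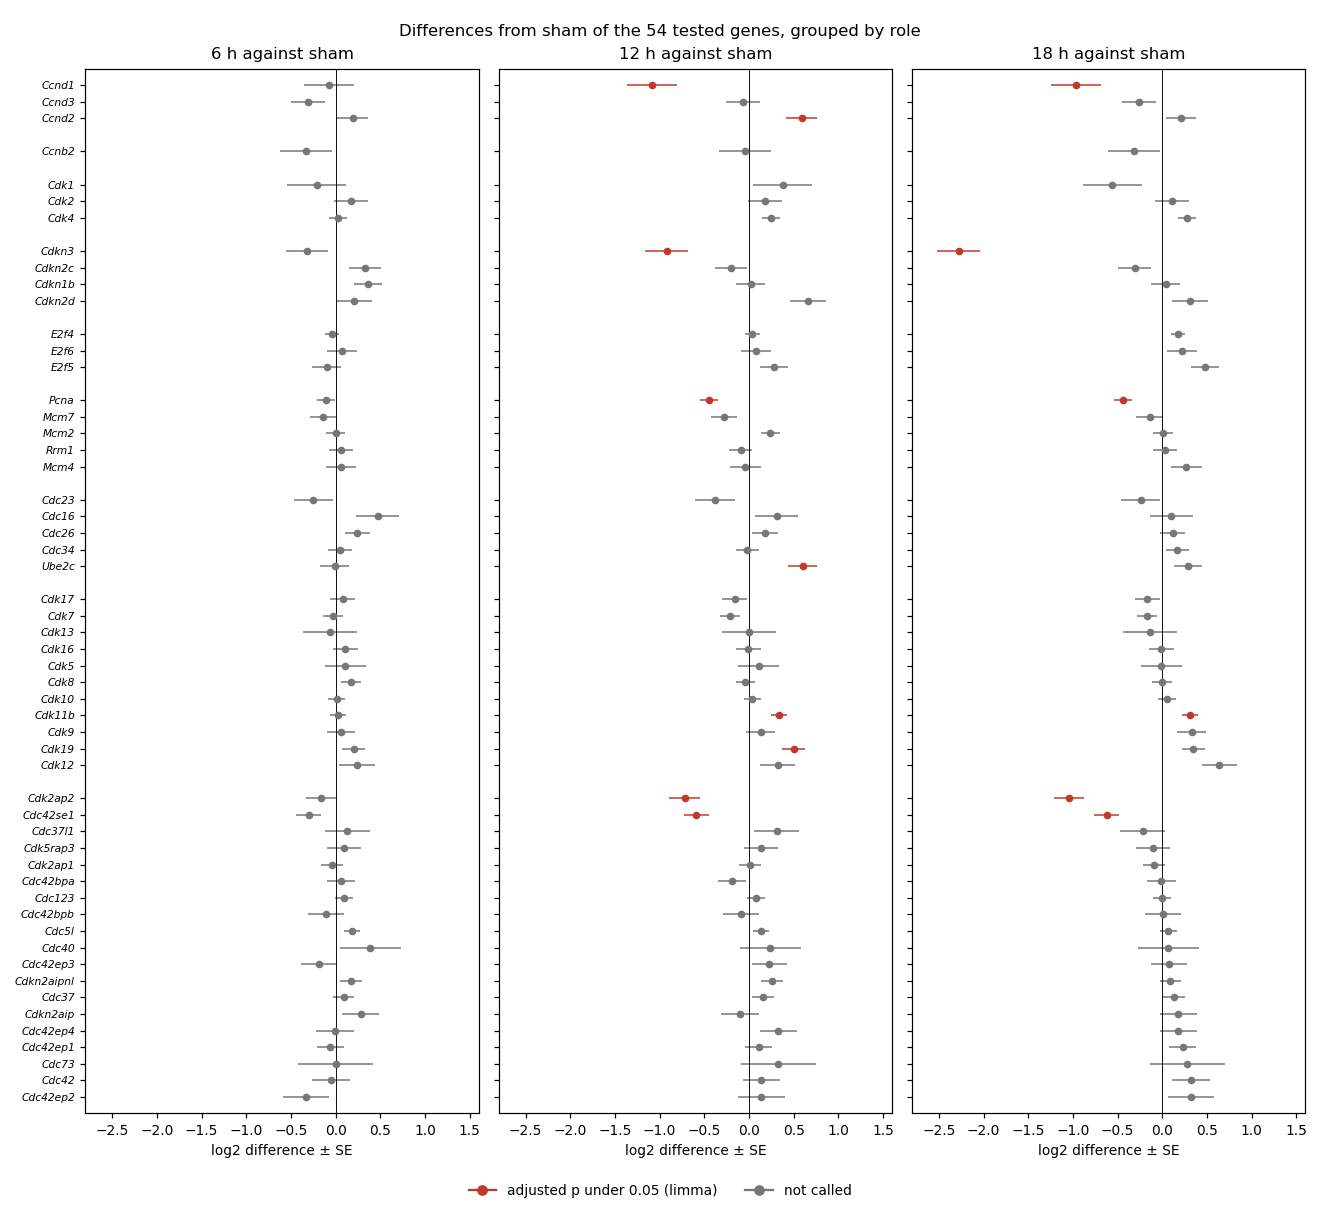
Log2 difference from sham ± SE (x axis) of each of the 54 tested genes, in blocks by role from G1 cyclins at the top to genes matched by symbol alone at the bottom, at 6, 12 and 18 h. Red points are called (0, 9 and 6 genes), and Cdkn3 at 18 h lies farthest from 0.

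Of the D cyclins, the G1 cyclins that pair with CDK4 and CDK6, Ccnd1 fell, Ccnd2 rose at 12 h, and Ccnd3 was not called. Ccnd1 read 9.30, 10.73, 9.34 and 9.91 in sham replicates 1 to 4, 9.69, 10.07, 9.75 and 9.48 at 6 h, 8.82, 8.88, 8.32 and 8.91 at 12 h, and 9.38, 8.75, 8.76 and 8.51 at 18 h. All 12 h arrays lay below all sham arrays, while 18 h replicate 1 lay inside the sham range, and sham replicate 2 stood highest of all. The difference was -1.09 ± 0.28 at 12 h, 2.13-fold lower (adjusted p = 0.029), and -0.97 ± 0.28 at 18 h, 1.96-fold lower (adjusted p = 0.0416).

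Within replicates 1 and 2 Ccnd1 differed from sham by -1.17 at 12 h and -0.95 at 18 h, and within replicates 3 and 4 by -1.01 and -0.99. The call was lost in 4 of 8 fits without 1 array at 12 h, those without sham replicate 2 or 4 or 12 h replicate 1 or 3, and in 5 of 8 at 18 h, with differences of -1.26 to -0.79 and -1.15 to -0.67. It was also lost with the array sets as a block at both times.

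The other 2 probe sets of Ccnd1 showed larger differences with smaller errors. Probe set 1371150_at read 7.52, 8.56, 8.50 and 8.48 in sham replicates 1 to 4, 6.61, 6.51, 6.96 and 6.48 at 12 h and 6.85, 6.86, 6.71 and 6.50 at 18 h, so that neither ligated group overlapped sham. Its difference was -1.62 ± 0.20 at 12 h (adjusted p = 0.000214) and -1.53 ± 0.20 at 18 h (adjusted p = 0.000256). Probe set 1371643_at differed by -1.47 ± 0.24 (adjusted p = 0.00153) and -1.38 ± 0.24 (adjusted p = 0.00184). At 6 h the 3 probe sets differed from sham by -0.07, -0.26 and -0.37, each with an adjusted p of 1. All 3 probe sets thus placed the lower level at 12 and 18 h, and the one with the highest mean, which stands for the gene here, gave the smallest difference. These 2 were the only ones called among the 13 tested other probe sets of the 88 genes, at 12 h and at 18 h.

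**Figure D3:**
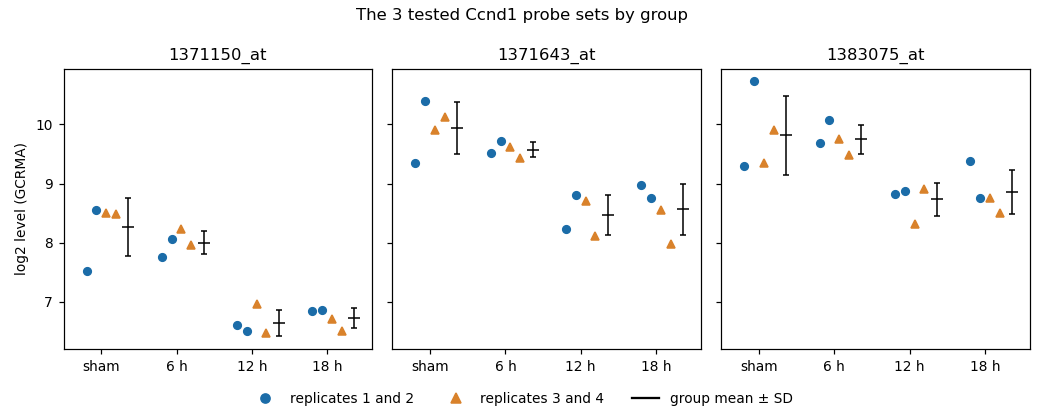
Log2 level of the 3 tested Ccnd1 probe sets on each array by group (circles: replicates 1 and 2; triangles: replicates 3 and 4; bars: group mean ± SD, n = 4). The 12 h and 18 h arrays lie below sham in all 3, apart from 18 h replicate 1 of 1383075_at (9.38), which lies inside its sham range.

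Ccnd2 read 8.29, 8.16, 8.12 and 8.20 in sham replicates 1 to 4, 8.86, 8.56, 7.99 and 8.13 at 6 h, 8.51, 8.68, 8.91 and 9.03 at 12 h, and 8.50, 8.41, 8.39 and 8.30 at 18 h. Every 12 h array lay above every sham array, and the 6 h arrays divided by replicate pair. The difference at 12 h was 0.59 ± 0.17, 1.5-fold higher (adjusted p = 0.0425), with 0.37 within replicates 1 and 2 and 0.81 within replicates 3 and 4. The call was lost in 7 of 8 fits without 1 array (all but the one without 12 h replicate 1), with the sets as a block, and with the arrays centred on their medians or quantile normalised again. At 18 h the difference was 0.21 ± 0.17 (adjusted p = 0.531).

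Ccnd3 read 8.67, 8.77, 8.66 and 8.32 in sham replicates 1 to 4, 8.48, 8.38, 8.27 and 8.04 at 6 h, 9.02, 8.52, 8.40 and 8.20 at 12 h, and 8.42, 8.74, 8.21 and 8.01 at 18 h. Its groups overlapped at every time, with differences of -0.31 ± 0.19, -0.07 ± 0.19 and -0.26 ± 0.19, and replicates 3 and 4 lay lower than replicates 1 and 2 by -0.36 ± 0.09 (adjusted p = 0.00677).

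**Figure D4:**
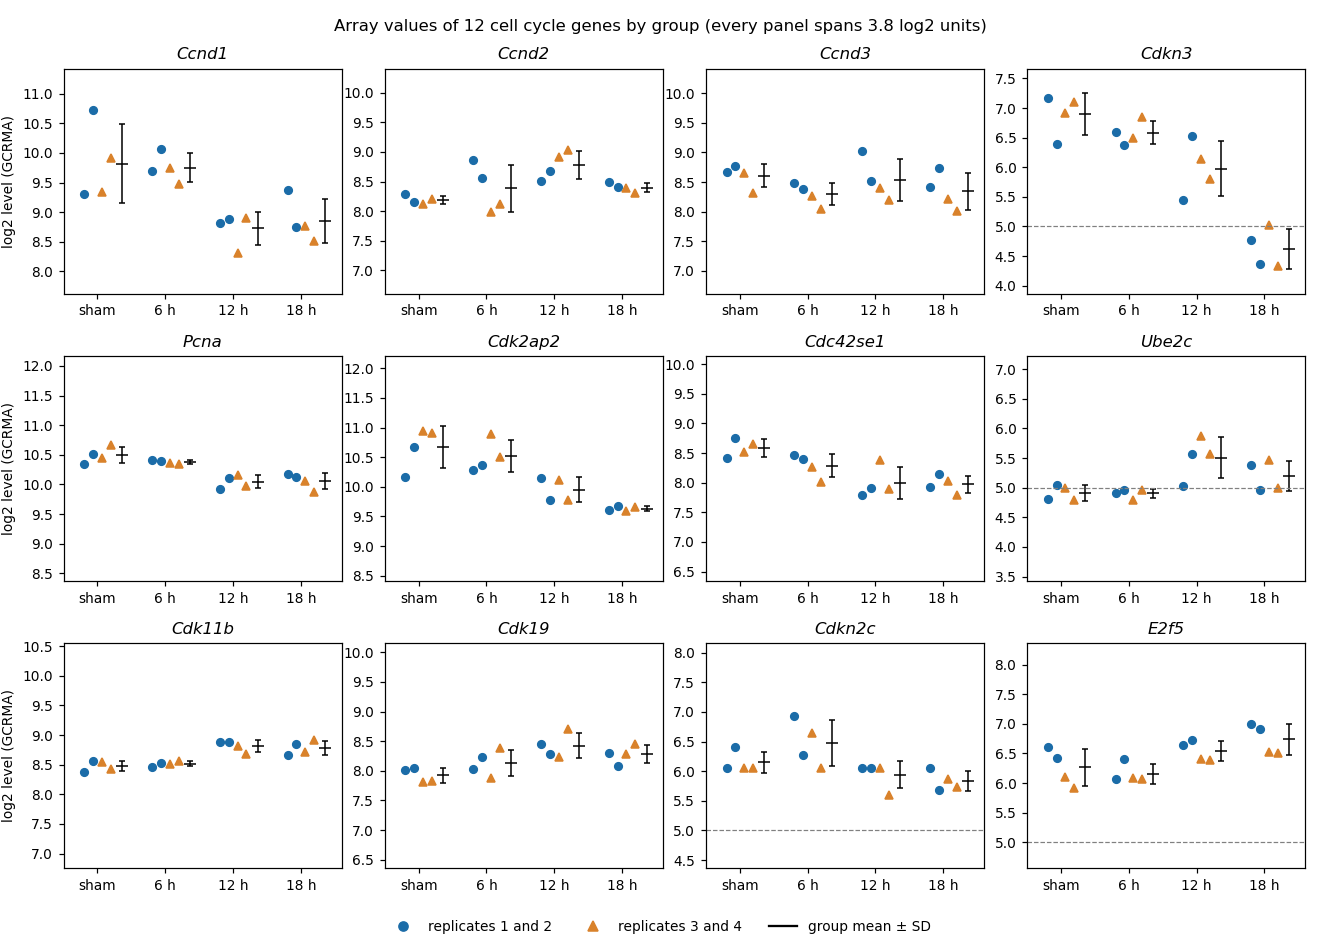
Log2 level on each array of the 3 tested G1 cyclins, the other 7 genes called against sham, and Cdkn2c and E2f5, called between 18 h and 6 h (circles: replicates 1 and 2; triangles: replicates 3 and 4; bars: group mean ± SD, n = 4; dashed line: level 5). Cdkn3, Cdk2ap2 and Pcna lie below sham on all 18 h arrays.

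The tested kinases of the cycle, Cdk4, Cdk2 and Cdk1, were not called. Cdk4, the D cyclin partner, differed by 0.25 ± 0.10 at 12 h (adjusted p = 0.145), where its lowest array of 10.05 lay above the sham maximum of 9.98, and by 0.28 ± 0.10 at 18 h (adjusted p = 0.0864). Cdk2, which acts at the start of S phase, differed by 0.18 ± 0.19 and 0.11 ± 0.19. Cdk1, the mitotic kinase, read 5.45, 5.93, 5.79 and 5.40 in sham replicates 1 to 4 and 5.47, 5.66, 6.89 and 6.07 at 12 h. Its difference of 0.38 ± 0.33 at 12 h turned with the replicate pair, -0.12 within replicates 1 and 2 and 0.88 within replicates 3 and 4, and at 18 h it was -0.56 ± 0.33.

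Of the 4 tested CDK inhibitor genes, Cdkn3 fell and the rest were not called against sham. Cdkn3 encodes a phosphatase that removes the activating phosphate from CDK2. It read 7.17, 6.40, 6.91 and 7.11 in sham replicates 1 to 4, 6.60, 6.38, 6.50 and 6.84 at 6 h, 5.44, 6.53, 6.14 and 5.80 at 12 h, and 4.77, 4.36, 5.03 and 4.33 at 18 h. The 18 h arrays lay below every other array, and 3 of them lay under 5, while at 12 h replicate 2 lay inside the sham range. The difference was -0.92 ± 0.24 at 12 h, 1.89-fold lower (adjusted p = 0.028).

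At 18 h the Cdkn3 difference from sham was -2.28 ± 0.24, a fall of at least 4.84-fold (adjusted p = 3.09e-05), since the 18 h mean of 4.62 lay under 5. It was -2.22 within replicates 1 and 2 and -2.33 within replicates 3 and 4, and the call held in all 8 fits without 1 array (-2.44 to -2.18) and in all 11 other alternatives that gave a value (-2.33 to -2.20). At 12 h the call was lost in 5 of 8 fits without 1 array. Between 18 h and 6 h Cdkn3 differed by -1.96 ± 0.24 (adjusted p = 0.000271). From 12 to 18 h it differed by -1.36 ± 0.24, which missed the threshold after adjustment over all probe sets (adjusted p = 0.135). RNA of spermatids and sperm fell too: the mean of the 7 markers ran from 4.25 to 5.96 on sham arrays, 2.67 to 4.50 at 6 h, 2.67 to 3.50 at 12 h and 2.68 to 2.92 at 18 h, 4 of them (Akap4, Prm2, Tnp1 and Tnp2) never reached 5, and all 3 tested ones were called lower at 12 and 18 h. Their median difference was already -3.99 at 6 h, where that of Cdkn3 was -0.32 ± 0.24, and their part in the Cdkn3 result was not tested.

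Cdkn2c, an INK4 inhibitor of CDK4 and CDK6, read 6.06 on 8 of the 16 arrays (within 0.005), a repeated value that 8 other tested genes of the 54 also had, at their own level, on 4 or more arrays. Whether this is a level or a limit of the probe set was not tested; lower values occurred, down to 5.59. At 6 h its arrays read 6.93, 6.27, 6.64 and 6.06, and at 18 h 6.06, 5.68, 5.87 and 5.74. The groups met at 6.06. The difference from sham was not called, but that between 18 h and 6 h was, at -0.64 ± 0.18 (adjusted p = 0.04), and it was lost in 6 of 8 fits without 1 array.

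Cdkn2d, another INK4 inhibitor, read 5.02, 4.69, 5.02 and 4.47 in sham replicates 1 to 4 and 5.79, 5.96, 4.98 and 5.11 at 12 h. Its 2 highest arrays of the 16 were 12 h replicates 1 and 2, the arrays with S100a8 and S100a9. The difference at 12 h was 0.66 ± 0.20 (adjusted p = 0.0559), 1.02 within replicates 1 and 2 and 0.30 within replicates 3 and 4, and the part of neutrophil RNA in it was not tested. It was called with the replicate pairs as a block (adjusted p = 0.0249), with the array sets as a block (0.86 ± 0.20, adjusted p = 0.0194) and within replicates 1 and 2 alone (adjusted p = 0.0309). These fits all held 12 h replicates 1 and 2. Without those arrays the Cdkn2d difference was 0.24 ± 0.15 and was not called (adjusted p = 0.408). That fit set 12 h replicates 3 and 4 against all sham arrays, so the divide between the replicate pairs enters it. Cdkn1b differed by 0.02 ± 0.16 at 12 h and 0.04 ± 0.16 at 18 h.

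Of the 3 tested E2F genes, none was called against sham. E2f5, a factor that represses with the retinoblastoma family, read 6.60, 6.43, 6.10 and 5.92 in sham replicates 1 to 4, 6.07, 6.40, 6.08 and 6.07 at 6 h, and 7.0, 6.91, 6.52 and 6.51 at 18 h. Replicates 1 and 2 lay above replicates 3 and 4 in sham and at 18 h, and sham replicate 1 lay inside the 18 h range. The difference at 18 h was 0.48 ± 0.16 (adjusted p = 0.0826), 0.45 and 0.51 within the 2 replicate pairs. It was called with the pairs of replicates as a block. Against 6 h, where no array overlapped, it was 0.58 ± 0.16 (adjusted p = 0.0417), lost in 5 of 8 fits without 1 array.

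Of the 5 tested replication genes, only Pcna was called. Pcna, the sliding clamp that holds DNA polymerase on its template and also serves repair, read 10.34, 10.51, 10.45 and 10.67 in sham replicates 1 to 4, 10.42, 10.39, 10.36 and 10.35 at 6 h, 9.93, 10.11, 10.16 and 9.97 at 12 h, and 10.18, 10.12, 10.06 and 9.87 at 18 h. All 8 arrays of 12 and 18 h lay below the lowest sham array. The difference was -0.45 ± 0.10 at 12 h, 1.37-fold lower (adjusted p = 0.0101), and -0.44 ± 0.10 at 18 h, 1.35-fold lower (adjusted p = 0.00993). Both calls held in all 8 fits without 1 array. Within replicates 1 and 2 the differences were -0.41 and -0.27, and within replicates 3 and 4 -0.50 and -0.60, and both calls were lost with the array sets as a block.

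The other replication genes did not follow Pcna past the test. At 12 h the helicase subunits Mcm2, Mcm4 and Mcm7 differed by 0.24 ± 0.11, -0.04 ± 0.17 and -0.28 ± 0.15, with adjusted p of 0.245, 0.94 and 0.337. The 12 h arrays of Mcm2 (5.72, 5.91, 5.75 and 5.73) lay above all sham arrays (at most 5.64). At 18 h the 3 genes differed by 0.01 ± 0.11, 0.27 ± 0.17 and -0.14 ± 0.15. Rrm1, the large subunit of ribonucleotide reductase, which makes the DNA precursors, differed by -0.09 ± 0.13 and 0.03 ± 0.13.

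Promoters were searched for motifs, which the choice by symbol did not use. RefSeq promoter sequences of the assembly GRCr8, from 250 bases before to 50 bases after the start, were matched for 70 of the 88 genes. There was no entry for Ccna2, Ccnd1, Ccnd2, Ccne2, Cdc16, Cdc42ep2, Cdk13, Cdk17, Cdk6, Cdk9, Cdkn1c, E2f1, E2f2, E2f4, E2f5, E2f8, Mcm4 and Ube2c. The E2F site was searched as TTTCCCGC, TTTCGCGC, TTTGCCGC or TTTGGCGC, on both strands. It was in 6 of the 10 matched replication promoters (60.0%) and in 9 of all 70 (12.9%), against 2.25% of the 27457 promoters in the table. The other 3 of the 9 were those of Cdk1, Cdc25a and Cdc42bpa. Cdc45, Pcna, Rrm1 and Top2a had no match, so Pcna, the replication gene that was called, was not among the 6. The windows of 30 bases around the first match are shown because these genes are the classical E2F targets, and of the 6 only Mcm2 and Mcm7 had a tested level. Each is written 5′ to 3′ on the gene's strand, with the match in capitals, and a capital run that starts with GCG is the site on the other strand.
Mcm2, chr4:122918090-122918119, minus strand: cgtgacccggtTTTCGCGCgaaaacccgtg
Mcm3, chr9:30733734-30733763, minus strand: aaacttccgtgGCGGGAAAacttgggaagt
Mcm5, chr19:13488589-13488618, plus strand: tagctcagaagTTTCGCGCcaaaacgtccc
Mcm6, chr13:42404473-42404502, minus strand: tggcgtctgctTTTGGCGCgaaattagcgt
Mcm7, chr12:22163393-22163422, minus strand: aatttcgaaccGCGGGAAAtcgggtgccca
Tyms, chr9:120776102-120776131, minus strand: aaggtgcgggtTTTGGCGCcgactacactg

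The CHR element, through which DREAM and related complexes act on mitotic genes, was searched as TTTGAA or TTCGAA and was in 15 of 70 promoters (21.4%), against 19.5% of all. The CCAAT box, the site of NF-Y, was in 36 of 70 (51.4%), against 37.7% of all. The promoters of Cdkn3, Cdk2ap2 and Pcna are shown because these genes lay below every sham array on all 18 h arrays, as Cdc42se1 did. They are written 5′ to 3′ on the gene's strand, with CHR and CCAAT matches on either strand in capitals. Cdkn3 held 1 CHR and 3 CCAAT matches, Cdk2ap2 6 CCAAT matches, and Pcna 1. None of the 3 held an E2F match, and the Cdc42se1 promoter held none of the 3 motifs. A match or its absence describes these letters in this window only.
Cdkn3, chr15:22502136-22502435, plus strand: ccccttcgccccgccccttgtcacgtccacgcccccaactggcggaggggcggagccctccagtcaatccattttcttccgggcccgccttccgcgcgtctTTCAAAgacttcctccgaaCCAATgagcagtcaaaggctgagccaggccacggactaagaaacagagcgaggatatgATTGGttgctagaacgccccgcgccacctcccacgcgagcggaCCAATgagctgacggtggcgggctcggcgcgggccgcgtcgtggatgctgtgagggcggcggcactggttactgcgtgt
Cdk2ap2, chr1:210820686-210820985, plus strand: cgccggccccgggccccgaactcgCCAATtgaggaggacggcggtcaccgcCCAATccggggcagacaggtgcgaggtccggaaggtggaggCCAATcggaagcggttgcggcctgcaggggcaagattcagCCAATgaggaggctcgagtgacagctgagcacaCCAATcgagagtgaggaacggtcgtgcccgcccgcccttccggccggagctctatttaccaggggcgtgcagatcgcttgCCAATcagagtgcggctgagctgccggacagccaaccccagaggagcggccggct
Pcna, chr3:139955771-139956070, minus strand: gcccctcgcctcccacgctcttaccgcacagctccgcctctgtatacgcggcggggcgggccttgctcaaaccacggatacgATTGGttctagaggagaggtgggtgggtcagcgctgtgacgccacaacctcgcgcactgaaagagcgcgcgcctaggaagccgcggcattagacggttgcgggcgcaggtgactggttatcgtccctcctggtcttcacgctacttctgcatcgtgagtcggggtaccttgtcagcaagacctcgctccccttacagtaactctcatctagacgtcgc

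Among the genes of mitosis and the anaphase promoting complex, 1 of 5 tested was called. Ube2c, the ubiquitin-conjugating enzyme of that complex, read 4.81, 5.05, 5.0 and 4.79 in sham replicates 1 to 4 and 5.03, 5.57, 5.87 and 5.57 at 12 h. The groups overlapped at 12 h replicate 1. The difference was 0.60 ± 0.16 (adjusted p = 0.0358), at least 1.51-fold, since the sham mean lay under 5, with 0.37 and 0.83 within the replicate pairs. The call was lost in 7 of 8 fits without 1 array. At 18 h Ube2c differed by 0.29 ± 0.16.

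Ccnb2, the mitotic cyclin with a tested level, overlapped sham at every time, with -0.04 ± 0.29 at 12 h and -0.32 ± 0.29 at 18 h. The subunits Cdc16, Cdc23 and Cdc26 and the ubiquitin ligase partner Cdc34 differed from sham by -0.38 to 0.31 at 12 h. The highest Cdk1 (6.89), Ccnb2 (5.95) and Ube2c (5.87) of all 16 arrays were on 12 h replicate 3, a pattern picked out after the values were seen. The next highest values were 6.12, 5.85 and 5.57.

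Of the 11 tested kinases of transcription and other kinases, Cdk19 and Cdk11b were called, both higher. Cdk11b, a kinase of splicing and transcription, read 8.38, 8.56, 8.55 and 8.43 in sham replicates 1 to 4, 8.88, 8.89, 8.82 and 8.68 at 12 h and 8.66, 8.85, 8.71 and 8.92 at 18 h. Neither ligated group overlapped sham, and the differences were 0.34 ± 0.09 (adjusted p = 0.027) and 0.31 ± 0.09 (adjusted p = 0.035). The calls were lost in 4 and 6 of 8 fits without 1 array, and with the arrays centred on their medians.

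Cdk19, a kinase of the Mediator complex, read 8.02, 8.05, 7.81 and 7.82 in sham replicates 1 to 4, 8.46, 8.29, 8.23 and 8.71 at 12 h and 8.30, 8.08, 8.28 and 8.46 at 18 h, with no overlap with sham at either time. The difference was 0.50 ± 0.13 at 12 h (adjusted p = 0.0363), lost in 5 of 8 fits without 1 array and with the arrays centred or quantile normalised again. At 18 h it was 0.35 ± 0.13 (adjusted p = 0.126). Its paralogue Cdk8 differed by -0.04 ± 0.11 and 0.00 ± 0.11. Cdk12, a kinase of transcript elongation, differed by 0.64 ± 0.20 at 18 h (adjusted p = 0.0631) and was called with the replicate pairs or the array sets as a block.

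Of the 19 tested genes matched by symbol alone, 2 were called at each of 12 and 18 h (10.5%), near the 7.86% and 10.2% of all tested probe sets. Cdk2ap2, a CDK2-associated protein of the same family as the chromatin protein Cdk2ap1, read 10.17, 10.67, 10.94 and 10.91 in sham replicates 1 to 4, 10.28, 10.37, 10.89 and 10.51 at 6 h, 10.15, 9.77, 10.12 and 9.77 at 12 h, and 9.61, 9.68, 9.59 and 9.65 at 18 h. The 18 h arrays were the lowest of all 16 and lay within 0.1 of each other, while the highest 12 h array lay just under the lowest sham array. The difference was -0.72 ± 0.17 at 12 h, 1.65-fold lower (adjusted p = 0.0194), and -1.04 ± 0.17 at 18 h, 2.05-fold lower (adjusted p = 0.00135).

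At 18 h the Cdk2ap2 call held in all 8 fits without 1 array and in 11 of 12 other alternatives, the exception being the fit within replicates 1 and 2 (-0.78, against -1.30 within replicates 3 and 4). At 12 h it was lost in 4 of 8. Between 18 h and 6 h it differed by -0.88 ± 0.17 (adjusted p = 0.00627). Cdk2ap1 differed from sham by 0.01 ± 0.12 at 12 h and -0.09 ± 0.12 at 18 h.

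Cdc42se1, a small protein that binds the GTPase CDC42, read 8.42, 8.75, 8.52 and 8.65 in sham replicates 1 to 4, 7.80, 7.91, 8.39 and 7.89 at 12 h and 7.92, 8.14, 8.03 and 7.79 at 18 h. All arrays of both times lay below sham, 12 h replicate 3 by the least. The difference was -0.59 ± 0.14 at 12 h (adjusted p = 0.0194) and -0.62 ± 0.14 at 18 h (adjusted p = 0.0118). The call was lost in 5 of 8 fits without 1 array at 12 h and in none of 8 at 18 h. The second probe set of the gene differed by -0.50 ± 0.22 at both times and was not called (adjusted p = 0.235 and 0.2). There replicates 1 and 2 at 12 h (8.22 and 8.21) lay inside the sham range of 8.20 to 8.63 and replicates 3 and 4 (7.67 and 7.65) below it. Cdc42 itself differed by 0.14 ± 0.21 and 0.32 ± 0.21, and at 18 h it was called with the replicate pairs as a block (0.32 ± 0.08, adjusted p = 0.0153), as was Cdk9, a kinase of transcript elongation (0.33 ± 0.10, adjusted p = 0.0367).

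**Figure D5:**
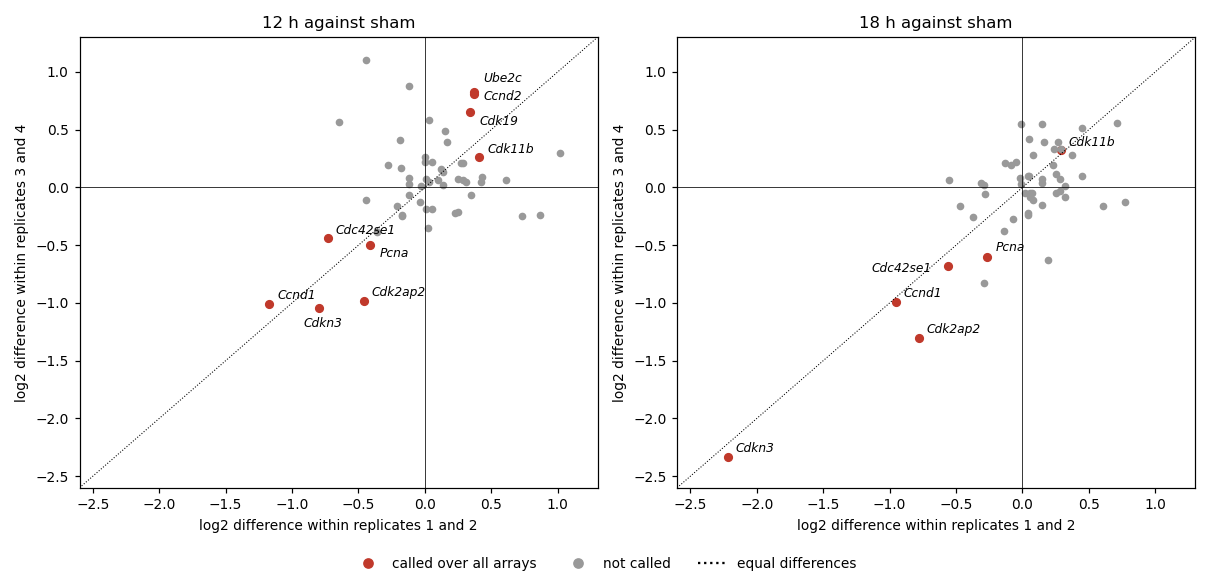
Log2 difference from sham within replicates 1 and 2 (x axis) and within replicates 3 and 4 (y axis) of the 54 tested genes at 12 and 18 h, with called genes in red and named, and a dotted line of equal differences. Every called gene has the same sign in both pairs, and Cdkn3 at 18 h (-2.22 and -2.33) lies close to the line. The genes were called on these same arrays, so the shared sign is no separate support. Within replicates 3 and 4 sham and the later arrays also differed in the dap control.

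Between the ligated times few of these genes were called. From 6 to 12 h none of the 54 was called by limma, with 13 at an unadjusted p under 0.05, where 4.28% of all tested probe sets were called. From 12 to 18 h none was called, with 3 at an unadjusted p under 0.05, and 0% of all tested probe sets were. From 6 to 18 h, 4 were called (7.41%), against 7.88% of all tested probe sets (3.54% higher and 4.34% lower): E2f5 was higher, and Cdkn3, Cdk2ap2 and Cdkn2c lower. With replicates 3 and 4 against 1 and 2 as a block, 6 genes were called from 6 to 12 h and 9 from 6 to 18 h. The share of all tested probe sets called with this block is not given, so these counts cannot be set against it.

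Other genes of the same pathways were counted from 3 lists. Of 19 tested other genes of G1 control, 1 rose at 12 h (5.26%, against 7.86% of all tested probe sets), and 2 rose and 1 fell at 18 h (15.8%, against 10.2%). Myc, a factor that drives entry into the cycle, rose by at least 1.85 ± 0.28 at 12 h (adjusted p = 0.00082) and 2.20 ± 0.28 at 18 h (adjusted p = 0.000155) from a sham mean of 4.18, under 5. Its arrays read 3.99 to 4.55 in sham, 5.48 to 6.27 at 12 h and 5.54 to 6.81 at 18 h and did not overlap. At 18 h the antiproliferative gene Btg1 rose by 0.72 ± 0.16 (adjusted p = 0.00976), and Cks1b, a small subunit bound to CDKs, fell, with a difference of -0.57 ± 0.13 (adjusted p = 0.0134). At 6 h none of the list was called by limma, against 0.283% of all tested probe sets, with 2 at an unadjusted p under 0.05. Of these Fbxw7, a ubiquitin ligase for cyclin E, had the smallest p (-0.76 ± 0.29, adjusted p = 0.667).

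Of 20 tested other DNA replication genes, limma called none at 6 h (0 at an unadjusted p under 0.05) and none at 12 h (3 at an unadjusted p under 0.05). At 18 h limma called 1 (5%), the topoisomerase Top1, which rose by 0.50 ± 0.12 (adjusted p = 0.0142). Of all tested probe sets 0.283%, 7.86% and 10.2% were called at 6, 12 and 18 h. The smallest p belonged to Pola2 at 6 h (-0.26 ± 0.19, adjusted p = 1) and to the DNA ligase Lig1 at 12 h (0.44 ± 0.16, adjusted p = 0.112). The list's median difference was -0.02 at 12 h and -0.04 at 18 h. Of 55 matched other genes of G2 and mitosis only 11 were tested. At 6 h limma called none of these, with 0 at an unadjusted p under 0.05, and Stmn1 had the smallest p (-0.24 ± 0.17, adjusted p = 1). Wee1, the kinase that restrains CDK1, was the only one called later. That was 9.09% of the 11 at each time, against 7.86% and 10.2% of all tested probe sets. Wee1 rose by 0.73 ± 0.12 at 12 h (adjusted p = 0.00126) and 0.42 ± 0.12 at 18 h (adjusted p = 0.0337). Its arrays read 7.64 to 8.02 in sham, 8.39 to 8.76 at 12 h and 8.15 to 8.34 at 18 h, so neither time overlapped sham.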

How the data were processed

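Total RNA was hybridised to Affymetrix rat arrays, 1 per sample. The authors made the deposited log2 values with GCRMA (version not stated), according to the submitters' processing notes. GCRMA corrects background by probe sequence and normalises quantiles, which can hide a shift common to all genes. Of 31099 probe sets, 57 controls were left out, and 20826 had 1 symbol in the platform annotation.

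Group means over all 16 arrays were fitted in R 4.3.3 with limma 3.58.1 (lmFit, eBayes). A probe set was tested at or above 5 in at least 4 arrays, and p-values were Benjamini-Hochberg adjusted over all 13410 tested probe sets within each comparison. The fit was tested on simulated data for 12 h against sham. It recovered 24% of 50 true log2 differences of 0.5, 70% of 50 of 1 and 96% of 50 of 2. It also made 7 false calls. A gene that was not called may therefore still differ by 0.5, less often by 1 and seldom by 2. Array correlations were 0.974 to 0.996, with 0 identical pairs.

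Members, lists and the rule for naming genes were chosen with earlier results of these data known. Named were all members called against sham and a preset list of core members, with full array values for the tested G1 cyclins and larger differences. Cdk2ap1, Cdk8, Cdk9, Cdk12, Cdc42, Cdc16, Cdc23, Cdc26, Cdc34, Cdkn2d, E2f5 and Cdk13 were named after their values were seen. Cdk11b was placed with the other kinases, and Cdkn2aip and Cdkn2aipnl with the genes matched by symbol alone. Leaving out 12 h replicates 1 and 2, and a trended robust prior for the comparison of replicate pairs, were alternatives added after the data were seen.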

Additional observations from a re-analysis of the deposited data

Results flagged for a closer look

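Within groups of 4 arrays, 4 values stood apart from the other 3 by a gap too large for Dixon's limit, among 48 groups of the members whose array values were checked, where chance flags about 1 in 20 groups. Ccnd1 at 12 h replicate 3 read 8.32, with the nearest array at 8.82. Cdkn2c read 6.41 in sham replicate 2 and 5.59 in 12 h replicate 4, and the other arrays of both groups all read 6.06, a value that recurs on 8 of the 16 arrays; whether it is a level or a limit of the probe set was not tested. E2f5 at 6 h replicate 2 read 6.40, with the nearest at 6.08.

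For 4 of the 54 genes (7.41%) the change from sham differed between 18 h and 6 h by limma's test of the difference itself. This is the comparison of 18 h with 6 h given above, where 7.88% of all tested probe sets were called. The differences were -1.96 for Cdkn3, -0.88 for Cdk2ap2, -0.64 for Cdkn2c and 0.58 for E2f5. The calls of Cdkn2c and E2f5 were lost in 6 and 5 of 8 fits without 1 array.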

How the results depend on the processing

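The calls depended on which arrays and which blocks entered the fit. The share of all tested probe sets called is not given for the alternatives, so their counts cannot be set against it. No named member that was called changed sign under any alternative. At 12 h the count went from 9 to 4 with the array sets as a block (2 of them among the 9), 1 within replicates 1 and 2 (0 among the 9), 2 within replicates 3 and 4 (2), 3 with no minimum level (3), 5 with arrays centred (5), 4 without the arrays with neutrophil markers, 0 with only the groups compared, and 1 to 7 with 1 array left out. At 18 h the count went from 6 to 10 with a replicate block or a pair block (all 6 kept), 3 within replicates 1 and 2 (1 of the 6), 3 within replicates 3 and 4 (2), 3 with only the groups compared (3), and 4 to 6 with 1 array left out. From 6 to 12 h it went from 0 to 6 with a replicate or pair block, 2 and 1 within the pairs, 3 with a minimum of 7 or probe sets averaged, 1 with a trended robust prior, no minimum, quantile normalization again or only the groups compared, and 0 to 1 with 1 array left out. From 6 to 18 h it went from 4 to 8 with the replicate block and 9 with the pair block (all 4 kept), 2 within replicates 1 and 2 (0 of the 4), 2 within replicates 3 and 4 (2), 2 with a minimum of 7 (1), and 2 to 4 with 1 array left out. The cause of these changes was not tested; fewer arrays enter the fits within pairs, of only the groups compared and with 1 array left out. At 6 h and from 12 to 18 h the alternatives run left the count at 0. With the replicate block the 12 h count was 10 (all 9 kept). Of 24 correlations between same-numbered arrays in their deviations from the group means, 23 were 0.206 to 0.556 and 1, between sham and 18 h replicate 1, was 0.00651. The labels do not tie the numbers to animals and 1 pair lay under 0.1, so the fit without the block was kept as the main one, although the other pairs deviated together.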
